A study of Mus musculus with 24 samples.

Results

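The actin cytoskeleton genes described here are 37 genes that encode actins, actin-binding and focal adhesion proteins, and the transcription factor SRF with targets of SRF and its MRTF cofactors. They were chosen by name, but with earlier results of these data known. Counts of members set beside shares of all genes are therefore descriptions, not tests of the list. All 37 were found among the 34845 genes with at least 1 count and among the 16413 genes tested. The mouse osteocytic cell line Ocy454 was treated for 2 h or 8 h with vehicle, with the signalling lipid lysophosphatidic acid (LPA), with the active vitamin D hormone 1,25-dihydroxyvitamin D (1,25D) or with the 2 together, and 3 RNA libraries were made for each of the 8 groups. The study asked which pathways these agents engage in connection with FGF23 synthesis. The sources used here do not give doses or culture conditions. The labels do not state whether replicate libraries stem from separate cultures, and p-values therefore reflect only the spread among these libraries, which may be technical.

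The labels of the single treatments conflict. Sample titles give 1,25D for the libraries whose deposited tables carry the letter L, and LPA for those whose tables carry the letter D. Cyp24a1, the 24-hydroxylase gene induced by vitamin D, and Vdr, the vitamin D receptor gene, went against the titles. At 8 h Cyp24a1 stood at 0.98 ± 0.33 CPM (counts scaled to library size; mean ± SD, n = 3 for every group mean given here) in the code D libraries and 0.897 ± 0.17 with both agents, against 0.00986 ± 0.017 in vehicle and 0.0101 ± 0.018 in code L. Vdr stood at 254 ± 6.9 CPM in code D, 223 ± 16 with both agents, 125 ± 12 in vehicle and 72.3 ± 1.9 in code L. The single treatments are therefore called code L (titled 1,25D) and code D (titled LPA), and no direction drawn for them is assigned to an agent. Neither the both-agent comparison with vehicle nor the interaction depends on which reading is right.

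Total estimated counts were 32.96 to 33.84 M per library, and mitochondrially encoded genes took 9.01 to 16.92% of them, with the highest share in vehicle replicate 2 at 8 h. That library and replicate 2 of both agents at 8 h stood apart from the other libraries of their groups. On the leading principal component of the libraries' deviations from their group means (15.7% of that variance) they scored 41.3 and 35.1, against −27.3 and −25.2 for replicate 3 of the same groups. The 8 h calls that were lost without both of them are named further on. Of the osteocyte markers, Mepe had 1 count in all 24 libraries, Fgf23 17 and Sost 30, while Dmp1 ran from 0.757 to 1.79 TPM (the authors' measure scaled for length and depth), so the mature osteocyte markers were nearly absent.

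SRF is a transcription factor that binds the CArG box, a DNA element made of CC, a run of A and T, and GG. In resting cells its cofactors MRTF-A and MRTF-B are held in the cytoplasm by monomeric actin. When RhoA signalling drives actin into filaments, the cofactors are released, enter the nucleus and raise transcription of actin, of actin-binding proteins and of Srf itself. Another class of SRF cofactors, the ternary complex factors, responds to ERK and acts on immediate early genes. Osteocytes hold their long processes with bundled actin filaments.

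CArG boxes were looked for in promoter windows, since the members are named for this regulation. The motif was CC, then 6 bases that are A or T, then GG, a palindromic pattern that reads the same on both strands. RefSeq windows on GRCm38.p6, running from 250 bases before to 50 bases after a gene's start, were available for 34 of the 37 members, but not for Actb, Actg2 and Tagln. A box lay in 10 of these 34 members (29.4%), in 11 of their 43 windows. Among all genes with a window it lay in 488 of 27025 (1.81%). The 10 members were Actg1, Cnn2, Fhl1, Fhl2, Filip1l, Lima1, Myl6, Myl9, Srf and Vcl. A match is a run of letters, not a shown binding site, and the list itself was named for SRF targets. The stretches around the boxes of 6 members are printed 5′ to 3′ on the gene's strand with the box in capitals, because levels of 5 of them rose early and that of Myl9 did not pass the test. They lie at chr17:46556175-46556284 on the minus strand for Srf, chr14:20929148-20929220 on the plus strand for Vcl, chr15:99820150-99820236 on the minus strand for Lima1, chrX:56779541-56779630 on the plus strand for Fhl1, chr1:43163962-43164032 on the minus strand for Fhl2 and chr2:156775263-156775352 on the plus strand for Myl9.
Srf: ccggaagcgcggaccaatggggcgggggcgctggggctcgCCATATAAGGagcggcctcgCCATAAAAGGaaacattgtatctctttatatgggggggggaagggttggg
Vcl: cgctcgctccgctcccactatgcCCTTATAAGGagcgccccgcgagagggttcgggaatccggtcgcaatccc
Lima1: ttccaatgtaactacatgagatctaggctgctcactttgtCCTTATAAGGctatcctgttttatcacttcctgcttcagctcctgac
Fhl1: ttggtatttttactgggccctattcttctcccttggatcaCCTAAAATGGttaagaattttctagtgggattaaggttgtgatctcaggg
Fhl2: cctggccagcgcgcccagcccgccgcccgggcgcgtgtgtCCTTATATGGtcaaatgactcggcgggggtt
Myl9: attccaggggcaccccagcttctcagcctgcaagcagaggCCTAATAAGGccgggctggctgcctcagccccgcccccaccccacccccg
The same box letters, CCTTATAAGG, lay in the windows of Vcl, Lima1, Cnn2 and Filip1l, and Srf held 2 boxes close together. At 2 h Cnn2 passed under no treatment and Filip1l only with both agents.

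At 2 h most of the members were higher in the code L libraries (titled 1,25D) and with both agents, and none passed the test in code D. In code L, 21 of 37 rose and none fell by edgeR's quasi-likelihood test (adjusted p under 0.05), where 13.9% of all tested genes changed, 7.07% up and 6.85% down. With both agents 26 rose and none fell, where 19.9% of all genes changed, 9.9% up and 10% down. In code D (titled LPA) none passed, where 0.786% of all genes did (0.597% higher, 0.189% lower); 2 members, Actg1 and Myh9, had an unadjusted p under 0.05, and DESeq2 called none. The median log2 fold change of the 37 members was 0.38 in code L, 0.45 with both agents and 0 in code D, against 0 for all genes in each. These 3 comparisons share the vehicle libraries. Leaving out 1 library, depending on which, ended the code L calls of Cald1, Csrp1 and Zyx and the both-agent calls of Actg1, Actg2, Cald1, Cnn3, Fhl3, Filip1l, Myh9 and Zyx. In bulk RNA more RNA per cell and more cells of a type cannot be told apart.

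The early rise was seen in each library. The median member stood 0.39 to 0.42 above the vehicle mean (log2) in the 3 code L libraries, 0.41 to 0.49 with both agents and −0.04 to 0 in code D (titled LPA). The members together held 1.40 to 1.53% of all TPM in vehicle at 2 h, 1.73 to 1.77% in code L, 1.76 to 1.82% with both agents and 1.26 to 1.37% in code D. Every code L library (titled 1,25D) lay above every vehicle library for 31 members and below for none, against 14.8% and 15.4% of all genes. With both agents 30 members lay wholly above, against 17.5% of all genes. In the direct comparison with code D, which does not use the vehicle libraries, 27 members were higher in code L and none lower, where 18.1% of all genes changed (8.66% higher, 9.42% lower). With both agents against code D 27 were also higher and none lower, where 18.7% of all genes changed (9.23% higher, 9.48% lower).

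Between both agents and code L (titled 1,25D) at 2 h no member passed edgeR's test, where 0.768% of all genes did (0.609% higher, 0.158% lower); 7 had an unadjusted p under 0.05, and DESeq2 called 1. The nearest was Vcl, at 0.23 ± 0.06 on the log2 scale (SE; edgeR adjusted p = 0.09). The 2 h interaction (both agents − code L − code D + vehicle, log2) passed for none by edgeR or DESeq2, with 2 at an unadjusted p under 0.05, where 0.0366% of all genes passed (0.0244% above and 0.0122% below zero).

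**Figure D1:**
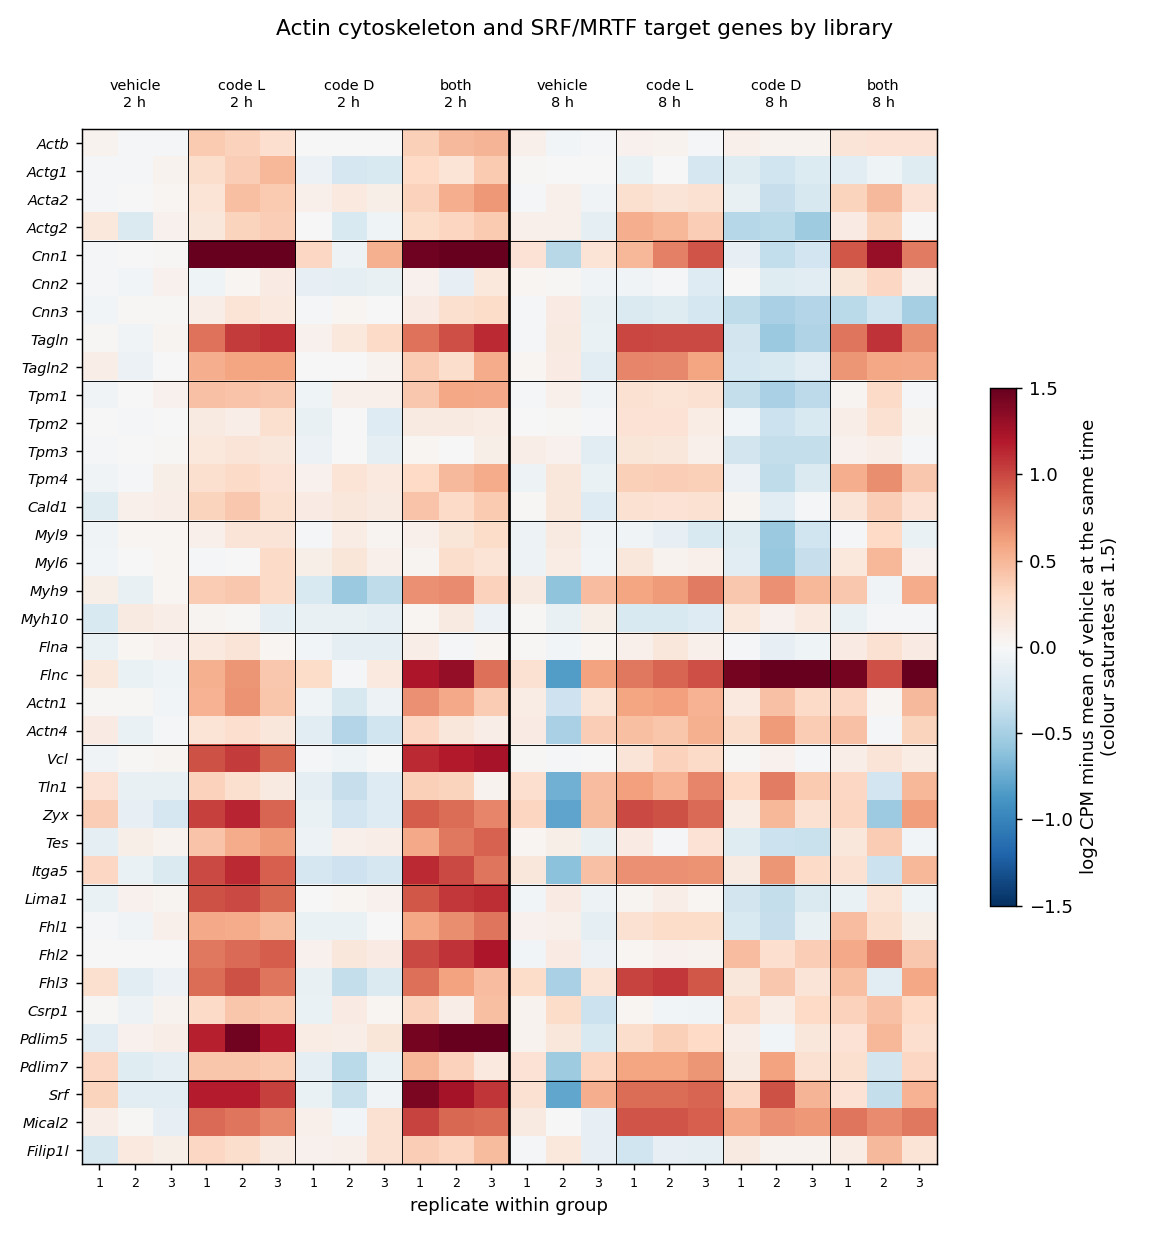
Log2 CPM of each of the 37 members (rows, grouped by role) in each of the 24 libraries (columns, by group and replicate), minus the mean of the 3 vehicle libraries at the same time. Colour saturates at 1.5 on the log2 scale, which Cnn1, Flnc and Pdlim5 pass in some libraries. Code L and both agents at 2 h are red across most rows, code D at 2 h is near white, and vehicle replicate 2 at 8 h is blue in a set of rows that includes Srf, Zyx, Tln1 and Flnc.

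At 2 h 3 of the 4 actin genes rose in code L and all 4 with both agents. Actb and Actg1 encode the cytoplasmic actins, and Acta2 and Actg2 the smooth muscle isoforms. Their coding sequences are near-identical, so reads divided between them by the authors' estimation make the single values uncertain. Actb stood at 4280, 4041 and 4094 CPM in vehicle at 2 h, 5412, 5238 and 4936 in code L (titled 1,25D), 4169, 4107 and 4155 in code D, and 5311, 5786 and 5911 with both agents. The code L and both-agent libraries lay above all others. The log2 fold change was 0.33 ± 0.06 in code L (edgeR adjusted p = 0.00084) and 0.45 ± 0.06 with both agents (adjusted p = 1.5e-05). Actg1 rose by 0.38 ± 0.08 in code L and 0.30 ± 0.08 with both agents, and Acta2 by 0.35 ± 0.08 and 0.52 ± 0.08. Actg2 stood at 0.28 ± 0.10 in code L (adjusted p = 0.064) and at 0.32 ± 0.10 with both agents (adjusted p = 0.027), a call lost in 6 of 13 alternatives, among them those without vehicle replicate 2 or both-agent replicate 2 or 3. In level per length, vehicle cells at 2 h held 2935 ± 360 TPM of Actb, 2804 ± 170 of Actg1, 659 ± 11 of Acta2 and 21.7 ± 4.2 of Actg2. Actb and Actg1 did not differ beyond their spread, and each was above Acta2, which was above Actg2.

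At 8 h the actins differed in direction. Actg1 passed under no treatment, with log2 fold changes of −0.12 ± 0.08 in code L (titled 1,25D), −0.23 ± 0.08 in code D (titled LPA) and −0.13 ± 0.08 with both agents. Actg2 stood at 29.4, 29.6 and 25.2 CPM in vehicle, 40.9, 39.6 and 36.2 in code L, 20.8, 21.2 and 19.3 in code D, and 30.6, 35.2 and 28.2 with both agents. Code L lay wholly above vehicle and code D wholly below it, and the both-agent libraries overlapped vehicle. The code L rise was 0.47 ± 0.10 (edgeR adjusted p = 0.0023) and the code D change −0.46 ± 0.10 (adjusted p = 0.0035). Acta2 rose with both agents at 8 h, by 0.35 ± 0.08 (adjusted p = 0.0046). The Actg2 fall and the Acta2 rise were lost when only the compared groups were fitted (adjusted p = 0.06 and 0.12).

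Among the calponins and transgelins, proteins that bind along actin filaments, the transgelins rose at both times in code L and with both agents. Tagln, a smooth muscle marker and classical SRF target, stood at 186, 178 and 189 CPM in vehicle at 2 h, 323, 380 and 394 in code L (titled 1,25D), 193, 205 and 225 in code D, and 324, 360 and 400 with both agents. At 8 h it stood at 281, 316 and 268 in vehicle, 577, 571 and 571 in code L, 238, 195 and 211 in code D (titled LPA), and 503, 610 and 465 with both agents. The code L and both-agent libraries lay above every vehicle library at both times, and code D lay wholly below vehicle at 8 h. Its log2 fold change in code L was 0.99 ± 0.10 at 2 h (edgeR adjusted p = 5e-07) and 0.99 ± 0.10 at 8 h (adjusted p = 1e-06). With both agents it was 0.97 ± 0.10 and 0.87 ± 0.10. In code D it was 0.17 ± 0.10 at 2 h and −0.43 ± 0.10 at 8 h (adjusted p = 0.0078), a fall lost without vehicle replicate 2 or code D replicate 2.

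Tagln2, the more widely expressed paralog, rose in code L and with both agents at both times. It stood at 354, 378 and 309 CPM in vehicle at 8 h and 574, 570 and 523 in code L, with 545, 516 and 511 for both agents, again without overlap. It rose by 0.68 ± 0.08 in code L at 8 h (edgeR adjusted p = 3.2e-06) and by 0.59 ± 0.08 with both agents (adjusted p = 6.5e-06). In code D (titled LPA) at 8 h its value was −0.23 ± 0.08 (adjusted p = 0.058). Cnn1, calponin of smooth muscle, had the largest fold change of the 37 at 2 h but was very low. It stood at 0.597, 0.608 and 0.612 CPM in vehicle, 1.88, 2.26 and 2.09 in code L (titled 1,25D), and 1.67, 1.87 and 1.76 with both agents. Its rise was 1.77 ± 0.22 on the log2 scale in code L and 1.54 ± 0.22 with both agents. Cnn3, a calponin of non-muscle cells, went the other way at 8 h. It stood at 738, 818 and 696 CPM in vehicle, 643, 660 and 625 in code L, 577, 533 and 553 in code D (titled LPA), and 564, 608 and 529 with both agents. Every treated library lay below every vehicle library, and it fell by 0.44 in code D (edgeR adjusted p = 7.4e-05) and by 0.40 with both agents on the log2 scale. The code L value was −0.22 (adjusted p = 0.024), a call lost in 7 of 14 alternatives, among them those without vehicle replicate 1 or 2 or code L replicate 1 or 3 (adjusted p up to 0.22).

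Tropomyosins wind along actin filaments and set which proteins bind them, and caldesmon, from Cald1, tethers myosin to actin. At 2 h Tpm1 and Cald1 rose in code L and Tpm1, Tpm4 and Cald1 with both agents, and Tpm2 and Tpm3 passed in neither. Both Cald1 calls were lost without vehicle replicate 1 (edgeR adjusted p = 0.15 in code L and 0.065 with both agents). Tpm1 stood at 718, 738 and 777 CPM in vehicle, 1010, 1001 and 984 in code L (titled 1,25D), 710, 786 and 783 in code D, and 988, 1110 and 1103 with both agents. It rose by 0.42 ± 0.07 in code L and 0.52 ± 0.07 with both agents (edgeR adjusted p = 0.00035 and 2.4e-05). The both-agent call passed under every alternative, and the code L call was not among the 17 of 21 that did. At 8 h it stood at 762, 821 and 747 CPM in vehicle and 608, 553 and 593 in code D (titled LPA), a fall of 0.41 on the log2 scale (adjusted p = 0.00055). Tpm3 also fell in code D at 8 h, by 0.33 on the log2 scale (adjusted p = 0.0013). Tpm4 stood at 603, 715 and 593 CPM in vehicle at 8 h, 812, 817 and 814 in code L, 599, 488 and 547 in code D, and 924, 1030 and 841 with both agents. Its rise with both agents at 8 h, 0.55 ± 0.09 (adjusted p = 0.00011), was among the 5 of that comparison that passed under every alternative.

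The myosin II genes changed little at 2 h. Myh9 and Myh10 encode non-muscle heavy chains, and Myl9 and Myl6 the regulatory and essential light chains. Only Myh9 passed at 2 h, with both agents (0.59 ± 0.18 on the log2 scale, edgeR adjusted p = 0.026), a call lost without vehicle replicate 2 or 3 or both-agent replicate 1 or 2 (adjusted p up to 0.1). At 8 h both light chain genes were lower in code D (titled LPA). Myl9 stood at 393, 454 and 400 CPM in vehicle, 365, 282 and 338 in code D, and 408, 511 and 387 with both agents. Myl6 stood at 899, 1019 and 920 in vehicle, 849, 638 and 744 in code D, and 1053, 1329 and 990 with both agents. Code D lay wholly below vehicle for both, and both agents overlapped vehicle for each. The code D values were −0.34 ± 0.10 for Myl9 (adjusted p = 0.026) and −0.35 ± 0.11 for Myl6 (adjusted p = 0.039), and both calls were lost without vehicle replicate 2, code D replicate 2 or code D replicate 3.

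Among the cross-linkers, which join actin filaments into networks or bundles, Actn1 rose in code L and with both agents at 2 h, Flnc with both agents, and Flna and Actn4 passed in neither. Flnc encodes the muscle filamin. It stood at 106, 88.5 and 90.5 CPM in vehicle at 2 h, 137, 150 and 125 in code L (titled 1,25D), 115, 93.1 and 105 in code D, and 220, 237 and 168 with both agents. At 8 h it stood at 78.6, 37.6 and 102 in vehicle, 116, 123 and 131 in code L, 181, 235 and 199 in code D (titled LPA), and 181, 131 and 232 with both agents. The code L, code D and both-agent libraries all lay wholly above vehicle at 8 h although vehicle itself ranged widely. Its log2 fold change at 2 h was 1.13 ± 0.24 with both agents (edgeR adjusted p = 0.0014) and 0.53 ± 0.24 in code L (adjusted p = 0.16). At 8 h it was 1.49 ± 0.24 in code D (edgeR adjusted p = 0.00014), and 1.16 (adjusted p = 3.1e-05) without the 2 libraries that stood apart; it was lost with the compared groups alone (adjusted p = 0.084). Actn1, an alpha-actinin of focal adhesions and stress fibres, rose in code L by 0.54 ± 0.12 at 2 h and 0.56 ± 0.12 at 8 h.

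Among the focal adhesion genes Vcl, Zyx, Itga5 and Tes rose at 2 h. Vcl encodes vinculin, which links integrin complexes to actin, and stood at 359, 377 and 383 CPM in vehicle at 2 h, 721, 773 and 679 in code L (titled 1,25D), 366, 357 and 374 in code D, and 813, 852 and 877 with both agents. The 2 treated groups lay far above vehicle, with no overlap. It rose by 0.96 ± 0.06 in code L (edgeR adjusted p = 8.1e-11) and 1.18 ± 0.06 with both agents (adjusted p = 2.2e-12). Zyx, zyxin, stood at 393, 279 and 254 CPM in vehicle and 615, 671 and 557 in code L, with 567, 540 and 502 for both agents. Itga5, the fibronectin receptor subunit, stood at 169, 127 and 117 in vehicle, 270, 296 and 252 in code L, and 296, 269 and 238 with both agents. Zyx rose by 0.99 ± 0.25 and 0.80 ± 0.25 in the 2 groups, and Itga5 by 0.98 ± 0.21 and 0.96 ± 0.21. Both Zyx calls were lost without vehicle replicate 3 (0.87 and 0.67, adjusted p = 0.057 and 0.12), and that with both agents also without vehicle replicate 2 or both-agent replicate 1 or 2. Tes, testin, rose by 0.54 ± 0.10 and 0.75 ± 0.10. Tln1, talin, which activates integrins, passed in neither, at 0.23 ± 0.21 and 0.25 ± 0.21.

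LIM domain proteins join adhesions or filaments to signalling, and 6 of 7 rose in code L (titled 1,25D) at 2 h. Pdlim5 stood at 184, 214 and 219 CPM in vehicle, 462, 557 and 470 in code L, 221, 220 and 232 in code D, and 553, 592 and 596 with both agents. Lima1, which encodes the filament-stabilising protein EPLIN, stood at 418, 470 and 461 in vehicle, 871, 892 and 818 in code L, 452, 457 and 471 in code D, and 856, 935 and 965 with both agents. Fhl2, a cofactor that also binds SRF, stood at 56.4, 56.2 and 56.6 in vehicle, 97.7, 102 and 106 in code L, 59.0, 63.5 and 61.4 in code D, and 112, 120 and 131 with both agents. For all 3 genes the code L and both-agent libraries lay above every vehicle and code D library. The rises with both agents were 1.5 ± 0.10 for Pdlim5, 1.03 ± 0.08 for Lima1 and 1.1 ± 0.08 for Fhl2 (edgeR adjusted p = 3.1e-10, 2.3e-09 and 1.5e-09). Fhl3 rose by 0.85 ± 0.17 in code L and 0.63 ± 0.17 with both agents, and Fhl1 by 0.53 ± 0.08 and 0.69 ± 0.08. Csrp1 passed in code L (0.37 ± 0.11, adjusted p = 0.028), a call lost in 6 of 13 alternatives, among them those without any 1 vehicle library and those without code L replicate 2 or 3, and Pdlim7 passed in neither.

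Srf itself and Mical2, an actin-oxidising enzyme that acts upstream of MRTF, rose at 2 h. Srf stood at 170, 120 and 120 CPM in vehicle, 306, 304 and 275 in code L (titled 1,25D), 126, 107 and 130 in code D, and 359, 321 and 283 with both agents. It rose by 1.11 ± 0.24 in code L (edgeR adjusted p = 0.0026) and 1.23 ± 0.24 with both agents (adjusted p = 0.00071). Mical2 stood at 62.1, 58.7 and 52.9 CPM in vehicle, 104, 101 and 95.2 in code L, 60.9, 56.1 and 67.8 in code D, and 117, 105 and 103 with both agents. It rose by 0.79 ± 0.08 and 0.91 ± 0.08. Filip1l, a filamin A-interacting protein, passed with both agents at 0.38 ± 0.10, and not without vehicle replicate 1 or both-agent replicate 3 (adjusted p up to 0.11).

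**Figure D2:**
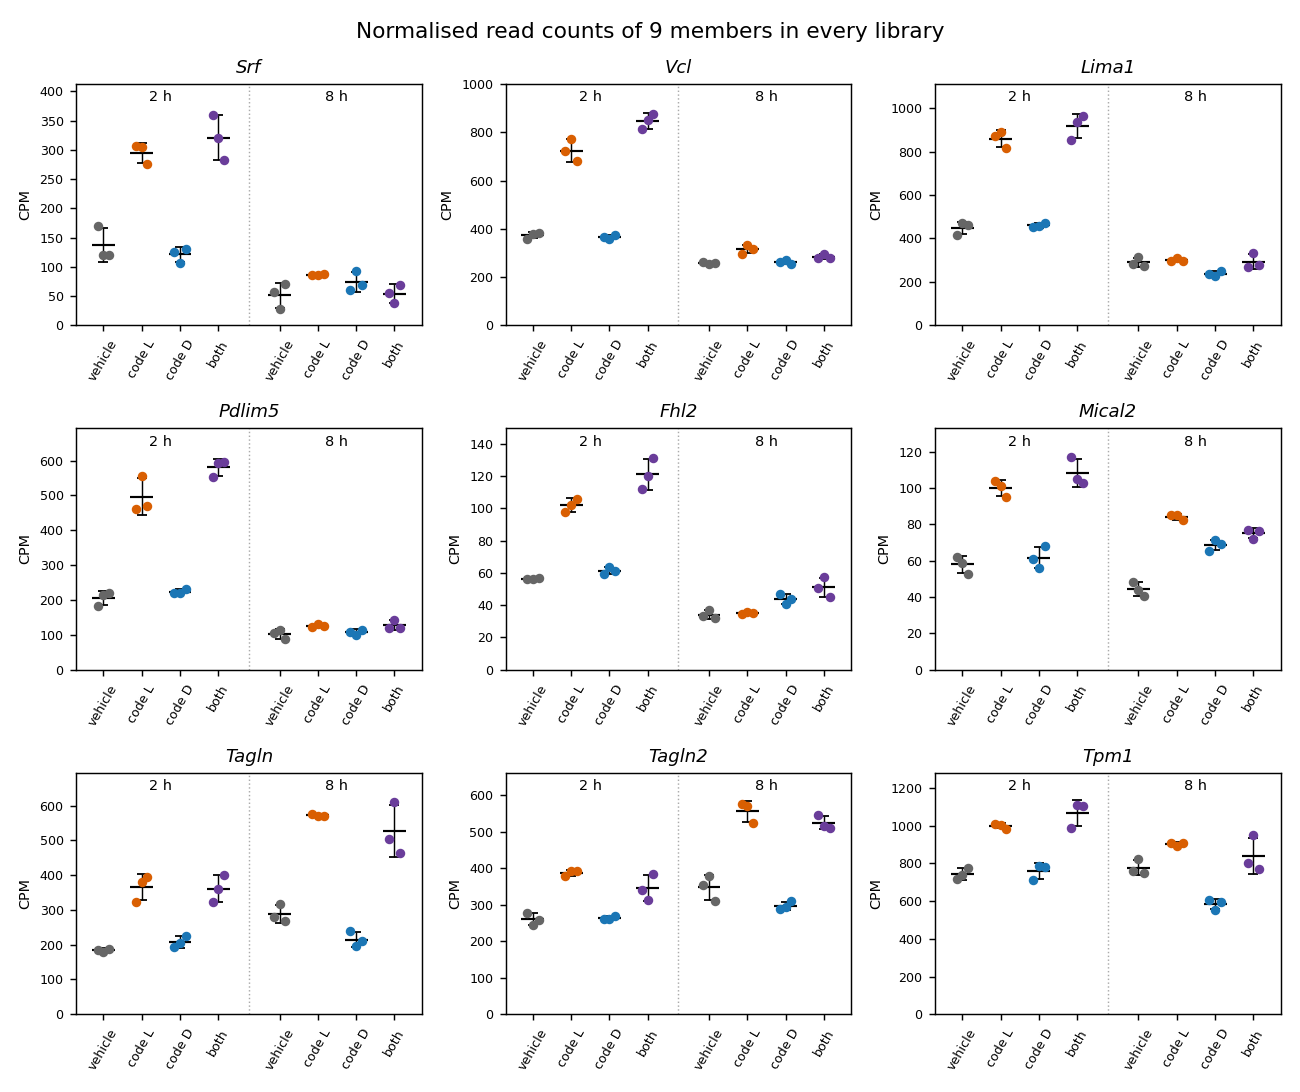
CPM of 9 members in every library (points), with group mean (bar) and SD (whisker), by group within 2 h and 8 h. The code L and both-agent points stand above vehicle at 2 h in all 9 panels. At 8 h both groups stay wholly above vehicle for Tagln, Tagln2, Mical2, Vcl and Pdlim5. Code L alone does so for Srf and Tpm1, both agents alone for Fhl2, and neither for Lima1.

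At 8 h fewer members passed in code L and with both agents than at 2 h, and more in code D. In code L (titled 1,25D), 18 rose and 1 (Cnn3) fell, where 16.2% of all genes changed (7.9% higher, 8.33% lower); the members' median log2 fold change was 0.26, against 0 for all genes. With both agents 13 rose and 1 (Cnn3) fell, where 16.8% of all genes changed (9.56% higher, 7.25% lower); the median was 0.21, against 0.03. In code D (titled LPA) 3 rose and 8 fell, where 12% of all genes changed (6.63% higher, 5.38% lower); the median was −0.05, against 0. The 3 comparisons share the vehicle libraries. The code L count was 10 without vehicle replicate 1 or 2 and 10, 9 and 8 without code L replicates 1, 2 and 3. The count with both agents was 9 without vehicle replicate 3. The code D count was 7 without vehicle replicate 2 or code D replicate 2, and 20 without vehicle replicate 3. Without vehicle replicate 2 and both-agent replicate 2 together the counts were 14, 10 and 11. Fitting the compared groups alone gave 8, 5 and 3.

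Of the members that rose at 2 h, some also passed at 8 h under every alternative. These were Tagln, Tagln2, Mical2, Fhl3 and Actn1 in code L (titled 1,25D) and Tagln, Tagln2, Mical2, Fhl2 and Tpm4 with both agents. Actg2 passed in code L at 8 h under every alternative and was not called there at 2 h. Mical2 stood at 48.3, 43.9 and 40.6 CPM in vehicle at 8 h, 85.1, 85.2 and 82.4 in code L, 65.5, 71.1 and 69.4 in code D (titled LPA), and 76.8, 72.0 and 76.4 with both agents. All treated libraries lay above vehicle, with log2 fold changes of 0.93 ± 0.08, 0.63 ± 0.08 and 0.76 ± 0.08 (edgeR adjusted p = 7.3e-08, 6e-06 and 3.2e-07). Fhl2 stood at 33, 37.2 and 32.1 CPM in vehicle at 8 h, 34.6, 35.5 and 35.2 in code L, 47.0, 40.5 and 43.8 in code D, and 50.3, 57.3 and 45.2 with both agents. It passed with both agents (0.58 ± 0.08, adjusted p = 1.9e-05) and in code D (0.36 ± 0.08, adjusted p = 0.0048), and stood at 0.04 ± 0.08 in code L.

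The change between the times was tested as the difference of the log2 fold changes, 8 h minus 2 h. For code L (titled 1,25D) it passed for 6 members, all lower at 8 h, where 4.17% of all genes passed (1.33% higher, 2.84% lower): Actg1, Cnn3, Fhl2, Lima1, Pdlim5 and Vcl. For both agents it passed for 10, all lower, where 9.68% passed (5.57% higher, 4.11% lower). For code D (titled LPA) it passed for 5, with Flnc and Mical2 higher and Cnn3, Tagln and Tpm1 lower, where 6.75% passed (3.75% higher, 3% lower). Of these 5, Cnn3 alone passed under every alternative. With the GC and length correction the Mical2 value fell from 0.54 to 0.15 (edgeR adjusted p = 0.47) and that of Flnc from 1.36 to 0.53 (adjusted p = 0.0047). Lima1 had returned to the vehicle range in code L. It stood at 280, 315 and 273 CPM in vehicle at 8 h, 296, 310 and 294 in code L, 238, 225 and 248 in code D, and 270, 332 and 277 with both agents, and its difference between times was −0.89 ± 0.11 for code L (edgeR adjusted p = 2.5e-05) and −1.01 ± 0.11 for both agents (adjusted p = 1.5e-06). The same differences were −0.97 ± 0.14 and −1.18 ± 0.14 for Pdlim5 and −0.68 ± 0.08 and −1.05 ± 0.08 for Vcl. The code D count was 3 without vehicle replicate 2, 17 without vehicle replicate 3, 12 without code D replicate 1 and 2 without code D replicate 2, all at 8 h.

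**Figure D3:**
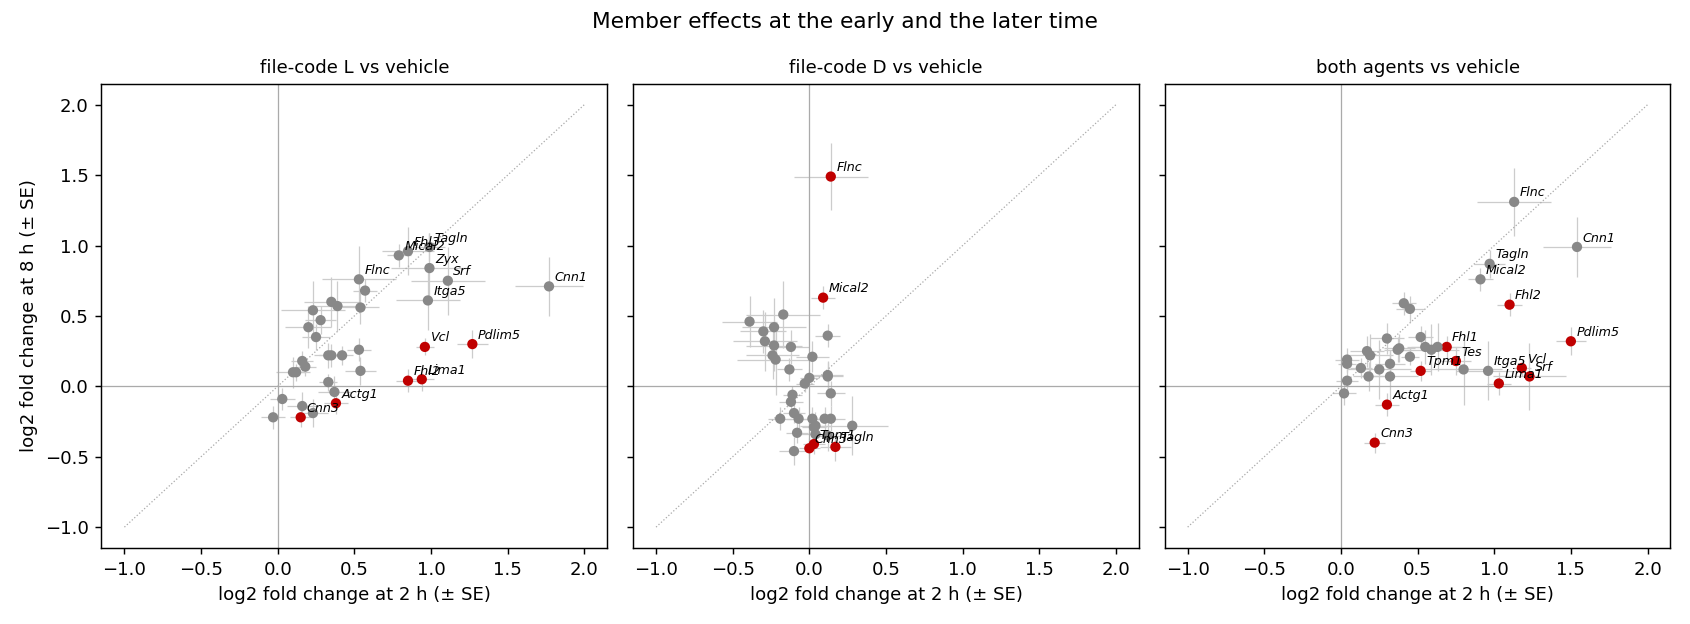
Log2 fold change against vehicle at 2 h (x axis) and at 8 h (y axis) for the 37 members, with SE, for code L, code D and both agents; the dotted line marks equal change and red marks members whose difference between times passed edgeR's test. For code L and both agents, Lima1, Pdlim5 and Vcl lie at 0.32 or less at 8 h and at 0.94 or more at 2 h, while Tagln and Mical2 lie close to the line.

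Vehicle cells also changed between the times, and every 8 h comparison with vehicle is read against the later level. Against 2 h, 6 members were higher and 12 lower in vehicle at 8 h, where 14.6% of all genes changed (5.88% higher, 8.71% lower). The higher ones were Acta2, Actg2, Cnn1, Tagln, Tagln2 and Flna, and the lower ones included Srf, Zyx, Pdlim5, Fhl3, Fhl2, Itga5, Lima1 and Vcl. Srf fell by 1.41 on the log2 scale (edgeR adjusted p = 0.0004), Zyx by 1.05, Pdlim5 by 1.01 and Fhl3 by 0.98. Tagln rose by 0.64 ± 0.10 and Acta2 by 0.55 ± 0.08. Of these 18 calls, those of Acta2, Fhl2, Lima1, Pdlim5, Tagln and Vcl passed under every alternative. The Cnn1 value was 1.06, and 0.12 (adjusted p = 0.88) with counts from length-scaled TPM. Without the 2 libraries that stood apart the Srf value was −1.12 and that of Zyx −0.76, and the calls of Itga5 (−0.42, adjusted p = 0.074) and Pdlim7 (−0.40, adjusted p = 0.07) were lost.

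In code D (titled LPA) at 8 h 8 members fell and 3 rose. The 8 that fell were Actg2, Cnn3, Tagln, Tpm1, Tpm3, Myl6, Myl9 and Lima1, and the 3 that rose were Flnc, Fhl2 and Mical2. Of these 11, Cnn3, Tpm1 and Mical2 passed under every alternative tried, and the other 8 lost the call when only the compared groups were fitted. In the direct comparison of code L (titled 1,25D) with code D at 8 h, 18 members were higher in code L and 3, Fhl2, Flnc and Myh10, lower, where 17.6% of all genes changed (8.27% higher, 9.32% lower). The largest of these differences were 1.42 ± 0.10 for Tagln, 1.00 ± 0.21 for Cnn1, 0.93 ± 0.10 for Actg2 and 0.91 ± 0.08 for Tagln2 on the log2 scale (edgeR adjusted p = 1.2e-09, 0.0016, 4.4e-07 and 1.2e-08). With both agents against code D, 17 were higher and none lower, where 22.9% of all genes changed (14% higher, 8.91% lower). Tagln again differed most, by 1.29 ± 0.10.

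**Figure D4:**
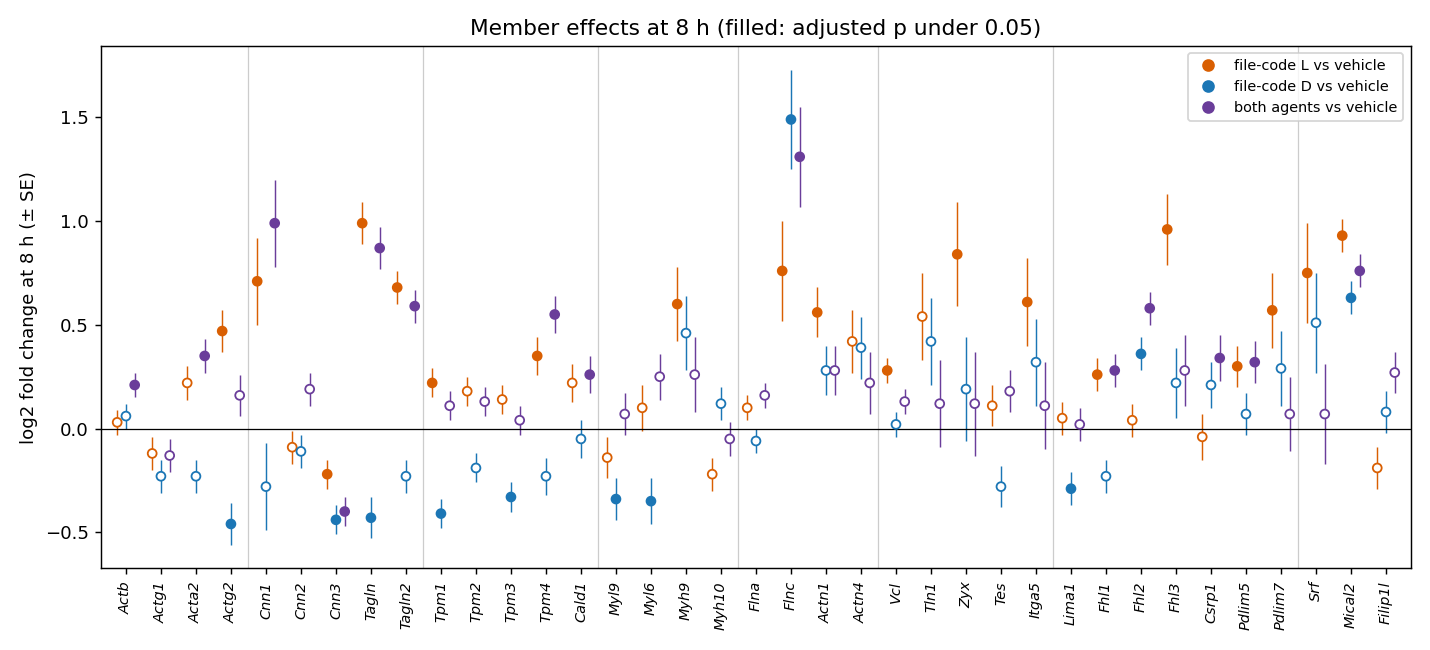
Log2 fold change against vehicle at 8 h with SE for each member (x axis, grouped by role) in code L, code D and both agents; filled points passed edgeR's test at adjusted p under 0.05. Code D points lie below zero for Acta2, Actg1 and Actg2, all calponins and transgelins and all tropomyosins, and filled above zero for Flnc, Fhl2 and Mical2.

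Between both agents and code L (titled 1,25D) at 8 h, 4 members were higher and 1 lower, where 9.18% of all genes changed (5.75% higher, 3.44% lower): Fhl2, Cnn2, Csrp1 and Filip1l higher and Fhl3 lower. The count was 3, 2 and 3 without code L replicates 1, 2 and 3, 3 without both-agent replicate 1 or 2, and 9 without both-agent replicate 3. The 8 h interaction, the departure of both agents from the sum of the single log2 effects, passed for 8 members, where 7.71% of all genes passed (4.07% above and 3.64% below zero). It was above zero for Cnn2, Tpm4, Myl9 and Myl6 and below zero for Actn1, Fhl3, Srf and Mical2. Mical2 alone passed under every alternative, at −0.80 ± 0.11 (edgeR adjusted p = 0.0014). Its log2 fold changes were 0.93 ± 0.08 in code L, 0.63 ± 0.08 in code D and 0.76 ± 0.08 with both agents. The other 7 depended on single libraries. The count was 1 without vehicle replicate 2, without any code L replicate, without code D replicate 2 or 3, or without both-agent replicate 1 or 2, was 5 without vehicle replicate 1, and was 20 without vehicle replicate 3, 18 without code D replicate 1 and 21 without both-agent replicate 3.

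One set of members moved together with the 2 libraries that stood apart. Srf stood at 56.4, 28 and 70.1 CPM in vehicle at 8 h, 55.8, 37.4 and 68.8 with both agents, and 85.9, 86.1 and 87.7 in code L (titled 1,25D), so the low value was replicate 2 in both of the first groups. Across the 24 libraries, deviations from the group mean followed that leading component with Pearson's r from −0.92 to −0.98 for Srf, Tln1, Itga5, Pdlim7, Zyx, Fhl3, Actn4, Actn1, Flnc and Myh9. These 10 members have transcripts of 54.3 to 63.8% GC. In the same GC range r was also 0.88 for Myl9 (56.7% GC), 0.69 for Csrp1 (55.2%), 0.6 for Tpm2 (57.2%) and 0.55 for Cnn2 (55.5%). Transcripts of the 10 ran from 1655 to 8170 bases, and those of Myl9, Csrp1, Tpm2 and Cnn2 from 1058 to 1913. The part of GC content or length in the component was not tested. For Cnn3, Tpm4, Fhl2 and Myl9 r was 0.88 to 0.91. All genes of a library enter the component, so these are descriptions. Without vehicle replicate 2 the 8 h code L values fell from 0.75 to 0.46 for Srf (edgeR adjusted p = 0.2), from 0.84 to 0.54 for Zyx (adjusted p = 0.15), from 0.61 to 0.37 for Itga5 (adjusted p = 0.26), from 0.76 to 0.45 for Flnc (adjusted p = 0.16), from 0.60 to 0.36 for Myh9 (adjusted p = 0.15) and from 0.57 to 0.35 for Pdlim7 (adjusted p = 0.22). Without both libraries the 8 h calls of Cnn1, Cnn3 (−0.15, adjusted p = 0.16), Flnc, Itga5, Myh9, Pdlim7 and Srf in code L were lost. So were those of Actb, Cald1, Cnn1 and Pdlim5 with both agents and of Myl6 in code D (titled LPA). Between both agents and code D the calls of Cnn2 and Flna were lost, and between both agents and code L that of Cnn2. Of the 8 h interaction calls only that of Mical2 was kept. The differences between times of Cnn3 in code L (−0.29, adjusted p = 0.081) and of Fhl1 with both agents (−0.35, adjusted p = 0.12) were lost too. The part that RNA quality or library composition has in these values was not tested.

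Transcript tables allowed the start sites of some members to be separated. Fhl1, Lima1, Vcl and Tpm1 are described, chosen after their values were seen. For Fhl1, transcripts from an internal start, whose window holds the CArG box printed above, stood at 48.2, 43.6 and 40.9 TPM in vehicle at 2 h, 84.3, 82.0 and 83.6 in code L (titled 1,25D), and 92.0, 96.1 and 97.8 with both agents. The code L and both-agent libraries lay above all vehicle libraries. Transcripts from the start 47.9 kb upstream stood at 65.4 ± 5.6, 65.8 ± 10 and 69.9 ± 4.1 TPM in the same groups (SD, n = 3). At 8 h the internal start stood at 30.8 ± 2.4 in vehicle, 65.2 ± 3.2 in code L and 62.5 ± 11 with both agents, against 70.5 ± 8.1, 61.6 ± 2.3 and 56.8 ± 7.1 upstream. For Lima1, transcripts from the internal start with the box stood at 105, 111 and 104 TPM in vehicle at 2 h, 235, 225 and 198 in code L, and 225, 233 and 233 with both agents, without overlap, while those from the start 55.3 kb upstream stood at 26.8 ± 2.3, 25.8 ± 2.9 and 28.6 ± 2.2. Vcl, whose first start has the box, was higher at both of its starts. Transcripts from the start with the box stood at 85.3 ± 0.31 TPM in vehicle, 158 ± 13 in code L and 184 ± 0.35 with both agents at 2 h, and those from the start 92.6 kb downstream at 25.2 ± 4.7, 52.4 ± 14 and 37.2 ± 6.1, without overlap at either start. These values are estimates by transcript from the authors' tables and were not tested.

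Tpm1 also has a pair of starts, with no box in its window. From its upstream start, 5.6 kb before the internal one, transcripts stood at 442 ± 24 TPM in vehicle at 2 h, 554 ± 27 in code L (titled 1,25D) and 631 ± 45 with both agents. From the internal start the values were 240 ± 20, 253 ± 24 and 265 ± 16. At 8 h the upstream start stood at 403 ± 43 in vehicle and 303 ± 26 in code D (titled LPA), and the internal start at 209 ± 11 and 190 ± 11.

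**Figure D5:**
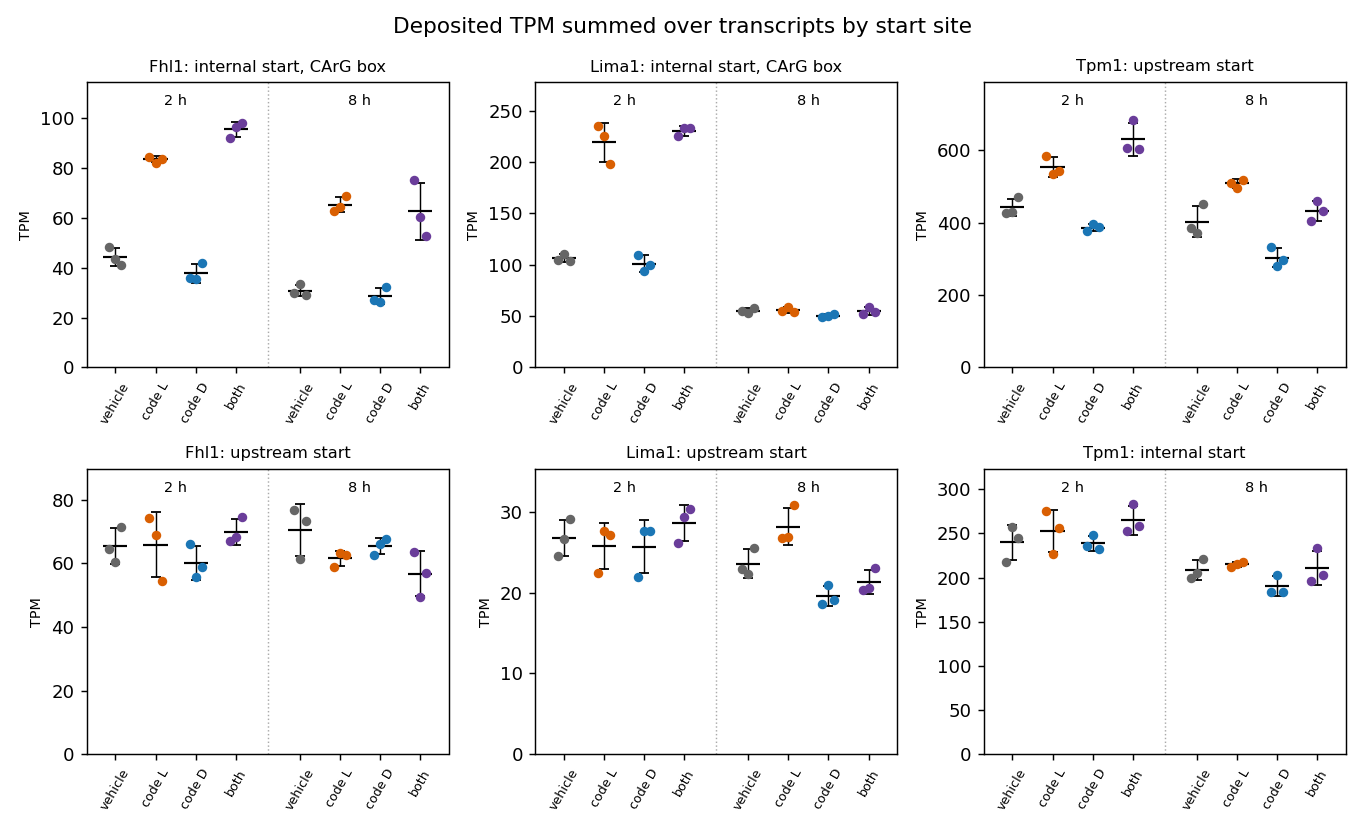
TPM summed over the transcripts of each start site (points, one per library; bar and whisker, mean and SD) for Fhl1, Lima1 and Tpm1, by group within 2 h and 8 h. For Fhl1 and Lima1 the code L and both-agent points at 2 h stand above vehicle at the start with a CArG box and overlap vehicle at the upstream start; for Tpm1 they stand above vehicle at the upstream start.

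Calls were counted for members with and without a CArG box in the promoter window. Myl6 was counted with a box, although the window at the start of its most abundant transcript holds none. In code L (titled 1,25D) at 2 h, 6 of 10 with a box rose and 13 of 24 without, where 7.07% of all genes rose. The medians were 0.46 and 0.38 on the log2 scale. With both agents 7 of 10 and 16 of 24 rose, where 9.9% of all genes rose. At 8 h in code L 3 of 10 and 13 of 24 rose, where 7.9% of all genes rose. The difference between these counts was not tested, and no box in the window says only that its letters are not there.

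Other genes of the RhoA, SRF and actin pathway were read from lists that hold none of the 37 members. Only calls of members were recomputed under the alternatives, so the dependence of these genes on single libraries or processing was not tested. Of 36 tested genes for SRF cofactors and RhoA signalling, 7 rose and none fell in code L (titled 1,25D) at 2 h, where 13.9% of all genes changed. With both agents 6 rose and 3 fell, where 19.9% changed, and in code D (titled LPA) none passed, where 0.786% did. Rock2, a kinase that RhoA activates, rose by 0.60 ± 0.09 in code L and 0.77 ± 0.09 with both agents (edgeR adjusted p = 6.6e-05 and 1.5e-06). Ppp1r12a, the targeting subunit of myosin phosphatase, rose by 0.54 ± 0.07 and 0.58 ± 0.07. With both agents at 8 h 4 of the 36 rose and 2 fell, where 16.8% of all genes changed. Among them Rnd3, which opposes RhoA, fell by 0.66 (adjusted p = 5.9e-06) and Rhoc rose by 0.78 ± 0.10. Rnd3 fell in both single treatments at 8 h too. Mrtfa and Mrtfb, the cofactor genes, rose in code D at 8 h, by 1.42 ± 0.24 and 0.39 ± 0.10 (adjusted p = 0.00026 and 0.012); they are named after their values were seen. Of the 36, 9 rose and 4 fell in code D at 8 h, where 12% of all genes changed. Of 32 tested genes for other actin-binding and adhesion proteins, 13 rose and none fell in code L at 2 h and 12 rose and none fell with both agents, beside the same 13.9% and 19.9% of all genes. Wdr1, which speeds actin turnover, rose by 0.49 ± 0.06 and 0.57 ± 0.06. In code D at 8 h 4 of the 32 rose and 6 fell, beside 12% of all genes. Synpo and Ldb3, an actin-bundling and a Z-disc protein, rose by 1.70 ± 0.22 and 1.29 ± 0.18. Synpo2, with a log2 fold change of −0.58, and Wdr1 were among those that fell.

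Immediate early SRF targets, genes such as the EGR factors that switch on within minutes of a stimulus, were counted too. Their calls were likewise not recomputed under the alternatives. All 11 rose in code L (titled 1,25D) at 2 h, where 13.9% of all genes changed, and all 11 with both agents, where 19.9% changed. Their medians were 2.47 and 1.89 on the log2 scale, against 0.38 and 0.45 for the 37 members. In code D (titled LPA) 1 fell, Egr2, where 0.786% of all genes changed. Nr4a1 rose by 3.03 ± 0.17 and 2.47 ± 0.16, Egr2 by 3.0 ± 0.11 and 1.89 ± 0.10, and Ccn2 by 1.83 ± 0.10 in each. At 8 h 10 of 11 rose in code L against the later vehicle, where 16.2% of all genes changed. With both agents 4 rose, Ccn2, Ier2, Junb and Nr4a1, and 2 fell, Ccn1 and Egr2, where 16.8% of all genes changed. In code D 3 rose and 3 fell, where 12% of all genes changed. Ccn2 was up by 0.95 ± 0.10 (edgeR adjusted p = 1e-06) and Egr2 down, at −1.11 ± 0.11.

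Markers of cell types were read beside these results. Smooth muscle markers summed to 37.8 to 50.4 TPM in the vehicle libraries at 2 h, 49.2 to 55.0 in code L (titled 1,25D), 30.4 to 33.8 in code D (titled LPA) and 40.8 to 51.3 with both agents. Their defining genes Myh11 (0.0111 to 0.0798 TPM over all libraries) and Myocd (0 to 0.0996) were near 0. Of the 5 tested, 1 rose in code L at 2 h, where 13.9% of all genes changed. It was Synpo2, which the actin-binding list also holds. At 8 h Smtn and Synpo2 rose and Des and Lmod1 fell in code L, where 16.2% of all genes changed. Synpo2 fell in code D, where 12% changed. Osteocyte markers summed to 194 to 200 TPM in vehicle at 2 h, 278 to 315 in code L and 304 to 340 with both agents. Nearly all of this sum came from Cd44, Gja1 and Pdpn, at up to 148, 127 and 72.0 TPM in any library. Dmp1 reached 1.79 and Phex 0.456. Of the 5 tested, Cd44, Gja1 and Pdpn rose in code L at 2 h, Cd44 and Gja1 with both agents and Gja1 in code D. Of all genes 13.9%, 19.9% and 0.786% changed in these comparisons. The part of these markers in the members' rise was not tested. Skeletal muscle, endothelial, blood and fat markers summed to at most 6.57, 1.62, 25.1 and 0.975 TPM in any library. Myod1 had 2 counts and Myog 1 in all 24 libraries.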

How the data were processed

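Ocy454 RNA was extracted with a column kit and made into DNBSEQ libraries, per the labels' protocols. The authors deposited estimated counts per Ensembl transcript and TPM, per the file headers; they name mm39 as build in the submitters' processing notes, while the sources used here do not give the quantifier or strand setting. GENCODE M21 (GRCm38) gave gene names, GC content and starts and matched 135024 of 139145 transcripts (99.42 to 99.57% of counts). Counts were summed to 49120 genes and rounded. edgeR 4.0.16 in R 4.3.3 was run with TMM, filterByExpr (minimum count 10), a robust quasi-likelihood F test and 1 fit of 8 groups without covariates; adjusted p-values are Benjamini-Hochberg over 16413 genes, threshold 0.05, in each of 18 comparisons. CPM use TMM library sizes. The fit was tested on simulated data. Every member may be named; values by library are given per role for up to 3 with the largest change with both agents and for those called in code D or an interaction, and up to 5 genes of each other list by smallest p. Members and lists were chosen with earlier results of these data known. Alternatives were median-of-ratios scaling, no filter, a replicate block, counts from length-scaled TPM, the compared groups alone, DESeq2 1.42.0 and each library left out; leaving out 2 libraries and a GC and length correction were chosen after seeing the data. No 2 libraries of one group agreed within sampling noise.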

Additional observations from a re-analysis of the deposited data

Results flagged for a closer look

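The effect of a treatment differed between 2 h and 8 h for several members, by edgeR's test of the difference of the log2 fold changes (8 h minus 2 h). The differences share the vehicle libraries of both times, and vehicle itself changed between the times for 18 of the 37 members. For code L (titled 1,25D) the differences were −0.50 for Actg1, −0.37 for Cnn3, −0.81 for Fhl2, −0.89 for Lima1, −0.97 for Pdlim5 and −0.68 for Vcl. For both agents they were −0.43 for Actg1, −0.62 for Cnn3, −0.42 for Fhl1, −0.52 for Fhl2, −1.01 for Lima1, −1.18 for Pdlim5, −1.17 for Srf, −0.57 for Tes, −0.41 for Tpm1 and −1.05 for Vcl. For code D (titled LPA) they were −0.44 for Cnn3, 1.36 for Flnc, 0.54 for Mical2, −0.60 for Tagln and −0.44 for Tpm1. The differences of Actg1, Fhl2, Lima1, Pdlim5 and Vcl in code L, of Cnn3, Lima1, Pdlim5 and Vcl with both agents and of Cnn3 in code D passed under every alternative. That of Fhl1 with both agents was lost in 10 of 20 alternatives and that of Cnn3 in code L in 9 of 20.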

How the results depend on the processing

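Of 235 calls of a member in a comparison, recomputed 3342 times under the alternatives, 2867 values kept their direction and side of the threshold, 474 kept their direction and lost the call, and 1 turned: Flna between code L and code D at 2 h, −0.07 (edgeR adjusted p = 0.78) after correction for GC content and length. Counts of members called moved by over 1.5 times as follows. With the compared groups alone they were 4 (both-agent difference between times), 10 (both agents against code D, 8 h), 1 and 3 (both agents against code L, 2 h and 8 h), 5 (both agents, 8 h), 3 (code D, 8 h), 8 (code L, 8 h), 1 (interaction, 8 h) and 6 (vehicle between times). With no filter they were 1 and 13 (both agents against code L), 16 (code D difference between times), 1 and 17 (code D, 2 h and 8 h) and 1 and 15 (interaction, 2 h and 8 h). With DESeq2 they were 1 and 10 (both agents against code L), 11 (code D difference between times) and 17 (interaction, 8 h). With the GC and length correction they were 16 and 12 (both-agent and code L differences between times), 3 and 14 (both agents against code L) and 1 (code D, 2 h). With length-scaled TPM they were 9 (both agents, 8 h) and 2 (interaction, 8 h), and without vehicle replicate 2 and both-agent replicate 2 the interaction at 8 h had 1. The causes were not tested. Leaving out 1 library gave 19 to 21 (code L), 0 to 0 (code D) and 21 to 23 (both agents) at 2 h and 8 to 18, 7 to 20 and 9 to 14 at 8 h; 0 to 0 and 2 to 9 for both agents against code L; 22 to 24 and 12 to 18 against code D; 21 to 25 and 17 to 21 for code L against code D; 0 to 0 and 1 to 21 for the interactions; 15 to 22 for vehicle; and 5 to 7, 2 to 17 and 8 to 11 for the code L, code D and both-agent differences between times. Over all groups same-numbered libraries did not deviate together (median r 0, from −0.26 to 0.36), and 6 of 24 correlated best with their own number. On the leading component vehicle and both-agent libraries followed their number. At 8 h replicates 1 to 3 scored −14, 41.3 and −27.3 in vehicle and −9.9, 35.1 and −25.2 with both agents. At 2 h they scored −19.6, 5.9 and 13.7, and −14.2, −0.4 and 14.6. Code L (3.1, 0.4 and −3.5) and code D (19.9, −22.1 and 2.2) did not at 8 h. The replicate block fits the same shift per number to all groups, so it cannot take up a shift of some groups only. With it the counts at 2 h were 21 and 26 (code L, both agents). At 8 h they were 18, 10 and 13 (code L, code D, both agents), with 8 for the interaction.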
